A study of Mus musculus with 18 samples.

Results

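Dystrophin is a long rod-shaped protein that ties the actin cytoskeleton of a muscle fibre to a group of membrane proteins, and through them to the matrix outside the fibre. The 8 genes described here encode that assembly: dystrophin (Dmd), its relative utrophin (Utrn), dystroglycan (Dag1), 3 sarcoglycans (Sgca, Sgcb and Sgcd), sarcospan (Sspn) and alpha-dystrobrevin (Dtna). They were chosen by name as members of the dystrophin complex, and all 8 were found among the 23425 genes of the RNA-seq table and among the 13183 genes with a mean normalised count of at least 10 that were tested. RNA was sequenced from hindlimb muscle of C57BL/6J females that were 2, 20 or 28 months old (2-m, 20-m and 28-m muscle), with 3 mice per age and 1 library per mouse. No treatment or genetic change was named in the labels. MBD-seq, in which a protein domain that binds methylated CpG pulls down DNA for sequencing, was made from muscle and spleen T cells of the same mice, as 1 pool of 3 mice for each age.

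Dystroglycan binds laminin outside the fibre and dystrophin inside it, the sarcoglycans and sarcospan form a second unit in the membrane beside it, and dystrobrevin and the syntrophins hold signalling proteins such as nitric oxide synthase on the inner face. In adult muscle utrophin is concentrated at the neuromuscular junction and dystrophin lies along the whole fibre surface. Loss of dystrophin causes Duchenne muscular dystrophy, and loss of a sarcoglycan causes a limb-girdle form.

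The reads recovered from the deposited values summed to 33051271 to 121485345 per library. These sums are larger on average than the number of mapped reads per sample that the study's text states, and the difference was not resolved. A normalised count is the number of reads of a gene divided by the size factor of its library, so it can be compared between libraries but not, without division by transcript length, between genes. All 8 muscle fibre markers examined (Ckm, Acta1, Myh4, Myh1, Myh2, Mb, Tnnt3 and Mylpf) were read in every library, with a summed normalised count of 5316677 to 6093669 at 2 months, 4868863 to 5624158 at 20 months and 4724768 to 4941775 at 28 months. The 3 libraries numbered 3, 1 of each age, stood apart: their normalised counts summed to 62379192 to 66187826, against 87711925 to 98056025 in the other 6. In bulk muscle, fewer fibres of a type and less RNA per fibre cannot be told apart.

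Of the 8 genes, Dmd rose and Sspn fell between 2-m and 20-m muscle, and neither changed between 20 and 28 months by the test. Dmd was 1.73-fold higher at 20 than at 2 months and Sspn 1.20-fold lower. The other 6 genes did not pass the test (limma on log2 of the normalised count plus 1, Benjamini-Hochberg adjusted p under 0.05 over the 13183 tested genes). The 2 of 8 members called at 20 against 2 months compare with 16.5% of all tested genes called in that comparison. The same 2 members were called at 28 against 2 months, where 13.8% of all genes were called, for the mean of 20 and 28 months against 2 months, where 20.1% were called, and over the 3 ages in a single test, where 16.0% were called. No member was called at 28 against 20 months, a comparison in which 0.379% of all genes (50 genes) passed, and in which 1395 genes had an unadjusted p under 0.05 with limma, 1380 with edgeR and 1324 with DESeq2. These comparisons share libraries, since 20 and 28 months were both set against the same 3 libraries of 2 months. The median log2 fold change of the 8 members was 0.01 at 20 against 2 months and 0.08 at 28 against 2 months, beside -0.02 and -0.01 over all tested genes.

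**Figure D1:**
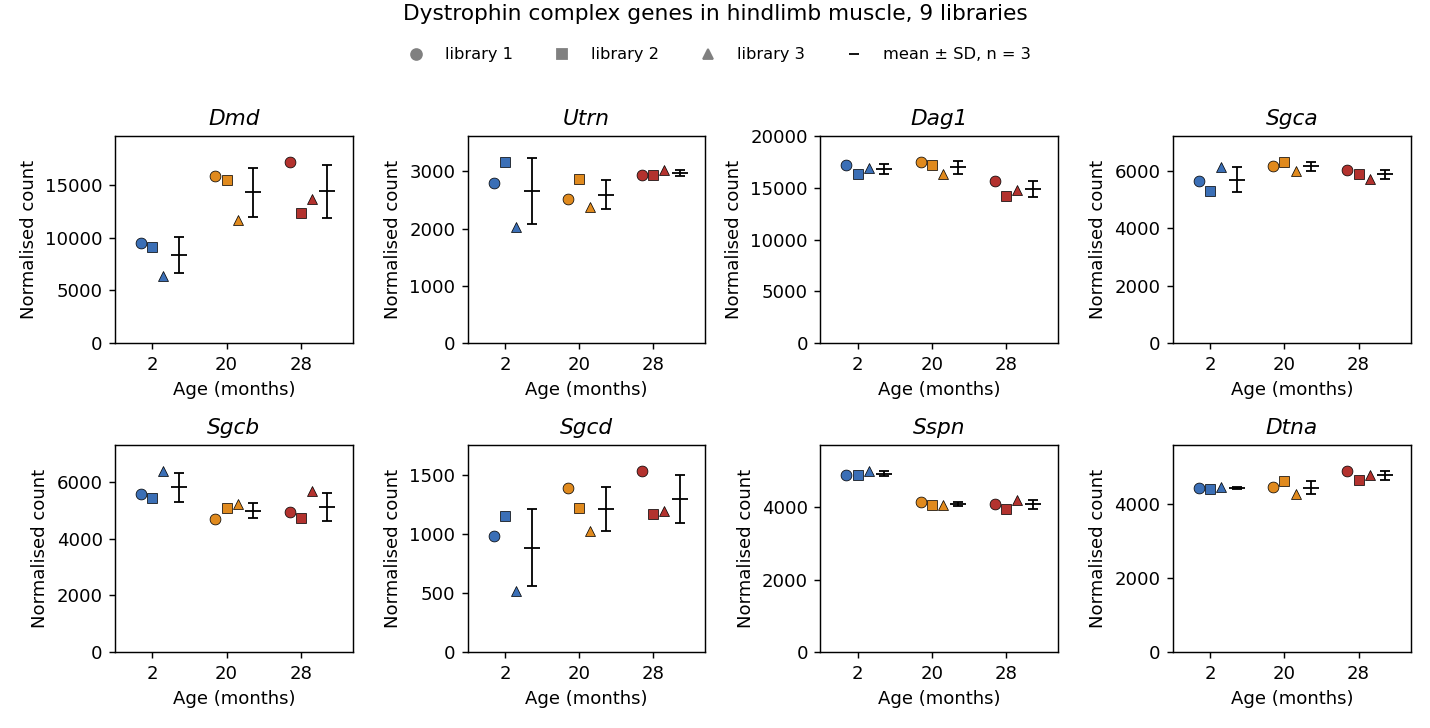
Normalised count (vertical axes, each from 0) of the 8 genes in each of the 9 libraries by age in months; the symbol shape gives the library number and the bar the mean ± SD of 3 libraries. Every Dmd value at 20 and 28 months (11663 to 17251) lies above every value at 2 months (6372 to 9526), and every Sspn value lies below (3958 to 4216 against 4888 to 5006).

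Dmd encodes the longest protein of the complex. The annotation (RefSeq, GRCm38.p6) places it on chromosome X from 82814664 to 85205050 on the plus strand, with 79 exons and 13852 bases in the full-length muscle transcript. Its normalised counts were 9526, 9107 and 6372 in the 3 libraries of 2-m muscle. They were 15873, 15520 and 11663 in 20-m muscle, and 17251, 12336 and 13706 in 28-m muscle. No library of 20-m or 28-m muscle was as low as the highest library of 2-m muscle, and the 20-m and 28-m groups overlapped. In order of age, the means were 8335 ± 1713, 14352 ± 2335 and 14431 ± 2537 (SD, n = 3 each). The log2 fold change was 0.79 ± 0.17 (SE) at 20 against 2 months (limma adjusted p = 0.0071) and 0.80 ± 0.17 at 28 against 2 months (limma adjusted p = 0.0076). At 28 against 20 months it was 0.01, with a 95% interval of -0.35 to 0.37 (limma adjusted p = 1.00). A two-sided exact permutation test of both older ages against 2 months gave p = 0.0119, the smallest that 6 against 3 libraries allow. The deposited count sums all transcripts of the gene, so full-length dystrophin and the short isoforms that begin at a later internal promoter were not separated.

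Within each age the library numbered 3 was lower in Dmd than the mean of the other 2, by 0.55 on the log2 scale at 2 months, 0.43 at 20 months and 0.09 at 28 months. At 28 months it (13706) lay between the other 2 (17251 and 12336). On both sides of that split Dmd was higher at 20 than at 2 months. The libraries numbered 3 were at 6372 at 2 months and 11663 at 20 months, and the others at 9107 and 9526 and at 15520 and 15873. These are different mice at each age, and the side numbered 3 holds 1 mouse per age. With only the 6 libraries numbered 1 and 2, Dmd was still called at 20 against 2 months (log2 fold change 0.75) and at 28 against 2 months (0.65). When each library was rescaled to the same sum, Dmd kept its direction at 20 against 2 months (0.82) but missed the threshold (limma adjusted p = 0.058).

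Sspn encodes sarcospan, a small membrane-spanning protein that sits with the sarcoglycans. It lies on chromosome 6 from 145931873 to 145965225 on the plus strand, with 2 annotated coding transcripts. The normalised counts were 4888, 4888 and 5006 at 2 months, 4143, 4073 and 4055 at 20 months, and 4097, 3958 and 4216 at 28 months. The groups of 20 and 28 months lay wholly below that of 2 months, and the spread within an age was small (SD 68.0, 46.9 and 129 around means of 4927, 4090 and 4090, n = 3). The log2 fold change was -0.27 ± 0.07 (SE) at 20 against 2 months (limma adjusted p = 0.015) and -0.27 ± 0.07 at 28 against 2 months (limma adjusted p = 0.017). At 28 against 20 months it was 0.00, with a 95% interval of -0.14 to 0.14. The two-sided exact permutation test of both older ages against 2 months gave p = 0.0119. This call depended on the scale and on single libraries. After rescaling to the same sum the log2 fold change at 20 against 2 months was -0.24 with a limma adjusted p of 0.96, and that at 28 against 2 months was -0.20 with 1.00. The limma adjusted p at 20 against 2 months was 0.055 without the first and 0.056 without the second library of 20 months, and at 28 against 2 months it was 0.056 without the first library of 28 months. With the libraries numbered 1 and 2 alone the value was -0.25 (limma adjusted p = 0.091) at 20 against 2 months.

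None of the 3 sarcoglycans passed the test in these comparisons. Sgca, which encodes alpha-sarcoglycan, was at 5657, 5299 and 6137 normalised counts at 2 months, at 6161, 6315 and 5979 at 20 months and at 6019, 5899 and 5700 at 28 months. Its 3 groups overlapped, and its log2 fold change at 20 against 2 months was 0.11 (95% interval -0.05 to 0.27). In the annotation Sgca shares sequence with Hils1 on the opposite strand, and no source says that reads were counted by strand, so the assignment of reads in that stretch is uncertain.

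Sgcb, which encodes beta-sarcoglycan, was at 5592, 5452 and 6385 normalised counts at 2 months. It was at 4687, 5069 and 5218 at 20 months, all below the 2-m libraries, and at 4958, 4730 and 5670 at 28 months, where the highest library overlapped with them. The log2 fold change was -0.22 (95% interval -0.41 to -0.02, limma adjusted p = 0.12) at 20 against 2 months and -0.18 (95% interval -0.38 to 0.01, limma adjusted p = 0.21) at 28 against 2 months.

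Sgcd, which encodes delta-sarcoglycan, had the largest standard error of the 8 members in the fit (0.23 on the log2 scale at 20 against 2 months). Its normalised counts were 985, 1154 and 521 at 2 months, 1397, 1225 and 1029 at 20 months and 1537, 1171 and 1200 at 28 months. The third library of 2 months was the lowest of all 9, and the 28-m libraries lay above all 2-m libraries. The log2 fold change was 0.52 (95% interval 0.02 to 1.03, limma adjusted p = 0.15) at 20 against 2 months and 0.62 (95% interval 0.11 to 1.13, limma adjusted p = 0.10) at 28 against 2 months. Without the second library of 2 months it was 0.75 at 20 against 2 months and 0.85 at 28 against 2 months, and was called in both (limma adjusted p = 0.037 and 0.023). Without the third it was 0.18 and 0.28, and was called in neither. With a term for the libraries numbered 3, chosen after seeing the data, both Sgcb and Sgcd were called at 20 against 2 months (limma adjusted p = 0.029 and 0.042) and Sgcd at 28 against 2 months (limma adjusted p = 0.023). A block for the library number made the same calls of these genes.

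Dag1 encodes both subunits of dystroglycan. Its normalised counts were 17207, 16332 and 16944 at 2 months, 17528, 17219 and 16315 at 20 months and 15716, 14193 and 14846 at 28 months. The 28-m libraries lay below those of both younger ages without overlap. The log2 fold change at 28 against 20 months was -0.19 (95% interval -0.35 to -0.03, limma adjusted p = 0.36), and that at 20 against 2 months was 0.02. The two-sided exact permutation p of 28 against 20 months was 0.1, the smallest that 3 against 3 libraries allow.

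Dtna encodes alpha-dystrobrevin, which binds dystrophin and the syntrophins. Its normalised counts were 4427, 4395 and 4439 at 2 months, 4442, 4601 and 4249 at 20 months and 4879, 4631 and 4767 at 28 months. Each 28-m library was above each younger one, by a small amount: the log2 fold change was 0.10 at 28 against 20 months (95% interval -0.04 to 0.25) and 0.11 at 28 against 2 months (95% interval -0.04 to 0.25), with limma adjusted p of 0.63 and 0.33.

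Utrn encodes utrophin, which can take the place of dystrophin on the membrane. Its normalised counts were 2791, 3167 and 2034 at 2 months, 2524, 2870 and 2373 at 20 months and 2936, 2940 and 3027 at 28 months. The 2-m libraries spanned the range of the other ages, and the 28-m libraries lay close together above those of 20 months. The log2 fold change was -0.02 (95% interval -0.31 to 0.27) at 20 against 2 months and 0.20 (95% interval -0.09 to 0.49, limma adjusted p = 0.64) at 28 against 20 months. A change in Utrn as large as that of Dmd at 20 against 2 months lay outside the interval.

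**Figure D2:**
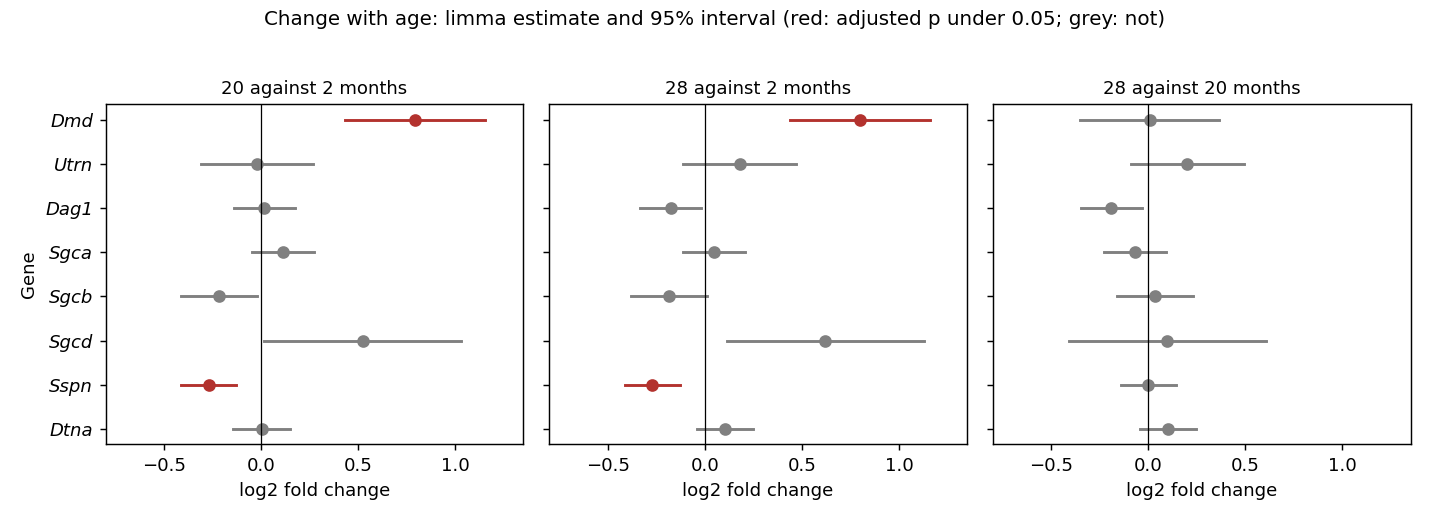
Log2 fold change (horizontal axes) of the 8 genes in 3 comparisons of ages, as the limma estimate with its 95% interval over 9 libraries; red marks an adjusted p under 0.05. The intervals of Dmd (0.43 to 1.15 at 20 against 2 months) and Sspn (-0.41 to -0.13) lie away from 0 against 2 months, and no gene is red at 28 against 20 months.

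Per kilobase of the longest annotated transcript, the order of the members at 2 months was Sgca (3278 ± 242 normalised counts per kb, SD, n = 3), Dag1 (3010 ± 80.3), Sgcb (1556 ± 135), Sspn (1112 ± 15.3), Dtna (693 ± 3.58), Dmd (602 ± 124), Utrn (215 ± 46.6) and Sgcd (97.2 ± 35.9). At that age the ranges of Sgca and Dag1 overlapped (3049 to 3531 against 2921 to 3078 per kb), and those of Dtna and Dmd nearly met (689 to 696 against 460 to 688 per kb). The other neighbours in this order did not overlap. At 20 months Dmd (1036 ± 169 per kb) lay beside Sspn (923 ± 10.6), with overlapping ranges, and above Dtna (695 ± 27.7). At 28 months Dmd was at 1042 ± 183, Sspn at 923 ± 29.2 and Dtna at 746 ± 19.5 per kb, and Dmd and Sspn again overlapped. Dmd thus moved from the sixth to the fourth place of the 8 by its mean. Delta-sarcoglycan stayed the lowest at each age (133 ± 20.2 per kb at 20 months and 143 ± 22.3 at 28 months). Over the 9 libraries, 539 of 13125 tested genes with a known length were higher per kb than Sgca, and 7152 were higher than Sgcd. Dmd, whose shortest coding transcript has 1410 bases, would be placed higher if many reads came from short isoforms, and the table cannot show their share.

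Against 2 months, the median log2 fold change was above 0 in the class of the longest transcripts and below 0 in that of the shortest. Among the 657 tested genes whose longest transcript exceeds 8 kb, the median log2 fold change at 20 against 2 months was 0.24, 25.1% were called higher and 4.57% lower. Among the 777 genes under 1 kb the median was -0.16, 1.80% were called higher and 9.78% lower. At 28 against 2 months the medians of these classes were 0.17 and -0.14, and at 28 against 20 months they had the opposite order (-0.051 and 0.032). Dmd (13852 bases), Utrn (12382 bases) and Sgcd (9126 bases) are in the longest class, with log2 fold changes of 0.79, -0.02 and 0.52 in the same comparison. Sspn (4433 bases) was in the class of 4 to 8 kb, whose median was 0.09. The libraries numbered 3 were lower in that longest class than their partners of the same age, by a median of 0.15 on the log2 scale at 2 months, 0.13 at 20 months and 0.04 at 28 months. Sgcd was lower there by 1.03, 0.35 and 0.16, and Utrn was at -0.55, -0.18 and 0.04 at the 3 ages. The part of transcript length in the change of Dmd was not tested.

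**Figure D3:**
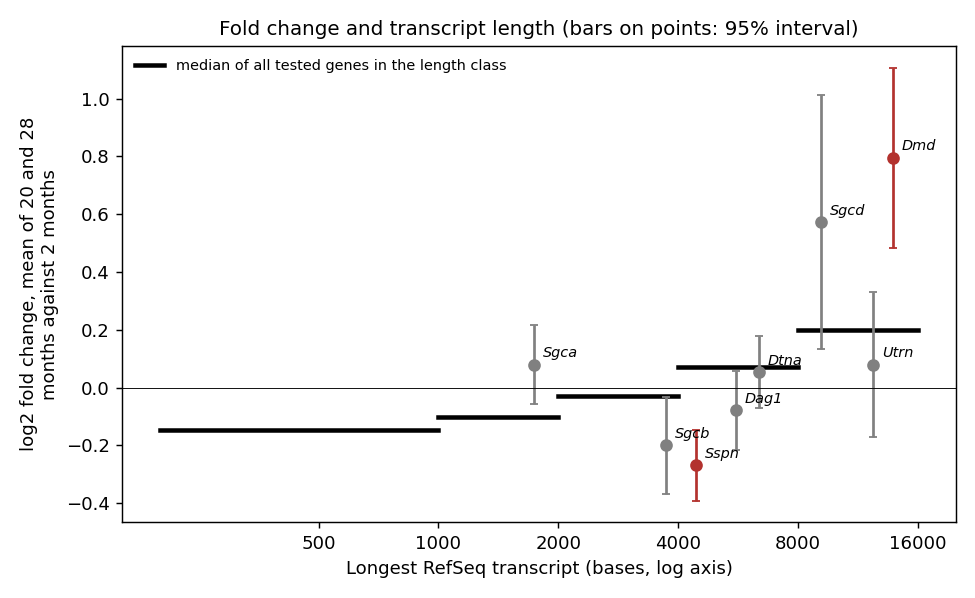
Log2 fold change of the mean of 20 and 28 months against 2 months (vertical axis) by length of the longest transcript in bases (horizontal log axis); points are the 8 genes with 95% intervals, red where called, and thick lines the median of all tested genes in 5 length classes, the longest of which is open above 8 kb. The class medians climb from -0.15 for the shortest to 0.20 for the longest class, Dmd lies at 0.80 above its class and Sspn at -0.27 below its class.

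Marker RNA of fibre types and of other cell types also differed between the ages. All 7 slow-fibre markers (Myh7, Tnni1, Tnnc1, Tnnt1, Myl2, Myl3 and Atp2a2) rose at 20 against 2 months, with a summed normalised count of 12890, 115123 and 28041 in the 3 libraries of 2 months, 163266 to 289784 at 20 months and 202374 to 255812 at 28 months. None of them was at 0 in any library. Of the 8 fibre markers, Myh2, a fast myosin, rose (0.80 and 0.70 on the log2 scale at 20 and at 28 against 2 months) and Mylpf, a fast light chain, fell (-0.66 and -0.46). Of 4 satellite cell and regeneration genes, Myh3, the embryonic myosin, rose at both ages, from 407 to 427 at 2 months to 1271 to 1756 at 20 months and 2040 to 2614 at 28 months. Pax7, the satellite cell marker, fell for the mean of both ages (-1.29). In the 3 libraries of 2 months, listed as for the slow-fibre sums (12890, 115123 and 28041), Dmd was at 9526, 9107 and 6372. The library with the lowest slow-fibre sum thus had the highest Dmd value. Of the 6 fibroblast markers, 3 fell at 20 against 2 months (Col1a1, Col1a2 and Col3a1), and the summed count fell from 51087 to 106411 at 2 months to 21889 to 24764 at 20 months and 21815 to 29894 at 28 months. Sspn was also lower at these ages. In the same comparison 3 of 6 adipocyte, 2 of 6 Schwann cell and 1 of 6 macrophage markers fell, none of the 6 endothelial markers was called, and 2 of 6 smooth muscle markers rose (Des and Synpo2, which striated fibres also express). Of 9 genes of the neuromuscular junction and of denervated fibres, 6 rose at 20 against 2 months and 8 at 28 against 2 months, with sums of 3197 to 3201 at 2 months, 4423 to 5634 at 20 months and 6427 to 7674 at 28 months. Chrng, the fetal receptor subunit in that list, was at 0 in 1 library of 2 months. The first library of 2 months also held the most marrow and blood RNA (a sum of 11029, against at most 3522 in the libraries of the older ages) and bone and cartilage RNA (4094, against at most 1033). Mpo and Elane, markers of marrow, were at 0 in all 6 libraries of 20 and 28 months. Without that first library, the log2 fold change at 20 against 2 months was 0.90 for Dmd and -0.27 for Sspn, and both were called. The part of these cell types in the change of the members was not tested.

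Of all tested genes, 9.43% were called higher and 7.12% lower at 20 against 2 months, and 7.53% and 6.24% at 28 against 2 months. The other genes of the complex showed 1 rise and 1 fall among 7 tested of 11 listed at 20 against 2 months. Nos1, the nitric oxide synthase that the complex holds at the membrane, was at 1522, 2160 and 1179 normalised counts at 2 months and at 2886, 3587 and 2759 at 20 months. It rose by 0.96 ± 0.18 on the log2 scale (SE, limma adjusted p = 0.0037), and at 28 against 2 months its value was 0.57 (limma adjusted p = 0.052). Cav3, which encodes the muscle caveolin that binds dystroglycan, fell from 1520, 1663 and 1628 to 1020, 1031 and 970 at 20 months, a log2 fold change of -0.67 (limma adjusted p = 0.00027). The syntrophins Sntb1 and Sntb2 were at -0.21 and -0.37 (limma adjusted p = 0.54 and 0.21). Sgce, which encodes epsilon-sarcoglycan, was at 0.07 (limma adjusted p = 0.80) and Dtnb at -0.72 (0.41) with at most 39 normalised counts in a library. The other 4 listed genes (Sgcz, Sntg1, Sntg2 and Dytn) did not reach a mean of 10, and Dytn had no read in any of the 9 libraries. Over the 7 tested genes the median log2 fold change was -0.21, beside -0.02 over all tested genes.

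Of 17 tested enzymes that build or prepare the sugar chain of dystroglycan, 1 was called at 20 against 2 months and 1 at 28 against 2 months. Large, which extends the chain that laminin binds, was at 929, 1019 and 1071 normalised counts at 2 months and at 1386, 1313 and 1389 at 20 months, a log2 fold change of 0.44 (limma adjusted p = 0.0065). It was at 1165, 1057 and 1215 at 28 months (log2 fold change 0.19 against 2 months, limma adjusted p = 0.20). Tmem5, a xylosyltransferase of that chain, was at -0.15 at 20 against 2 months and fell at 28 against 2 months, with a log2 fold change of -0.54 (limma adjusted p = 0.0025). Dolk passed the test for the mean of both older ages against 2 months alone, at -0.28 (limma adjusted p = 0.045), with Large at 0.31 and Tmem5 at -0.35 in that comparison (limma adjusted p = 0.014 and 0.010). Among those not called, Pomgnt1 had the next largest positive value after Large at 20 against 2 months (0.13), Dpm3 (-0.42) and Gmppb (-0.31) the most negative ones. At 28 months B3gnt1 was at -0.29 and Ispd at 0.42 against 2 months (limma adjusted p = 0.095 and 0.27). The median log2 fold change of the 17 was -0.15 at 20 against 2 months.

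Of 14 genes for matrix proteins around the fibre, 5 fell at 20 against 2 months and none rose. The 3 collagen VI chains fell most: Col6a1 by 1.44, Col6a2 by 1.37 and Col6a3 by 1.17 on the log2 scale (limma adjusted p = 0.00011, 9.2e-05 and 4.3e-05). Nid1, which encodes the nidogen that joins laminin to collagen, and Bgn, which encodes biglycan, a ligand of dystroglycan and of sarcoglycans, fell by 0.46 and 0.48 (limma adjusted p = 0.014 and 0.025). Lamc1, a laminin chain, was at -0.27 at 20 against 2 months (limma adjusted p = 0.065) and fell at 28 against 2 months, with a log2 fold change of -0.37 (0.018). Lama2, the laminin chain that dystroglycan binds in muscle, was at 2456, 2108 and 2660 normalised counts at 2 months, 3232, 2706 and 3050 at 20 months and 2325, 1931 and 2699 at 28 months. Its groups of 2 and 20 months did not overlap, and its log2 fold change was 0.32 (limma adjusted p = 0.10). Lama5 and Lamb2 were at 0.30 and 0.20 (limma adjusted p = 0.18 and 0.094), and Lama4 was at 0.26 at 28 against 20 months (0.46). The median of the 14 was -0.36 at 20 against 2 months. The fibroblast markers Col1a1, Col1a2 and Col3a1 fell in the same comparison. The part of cell types in the change of the matrix genes was not tested.

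Of 19 genes of the costamere, the rib-like structure that couples the outer sarcomeres to the membrane, and of its integrins, 7 rose and 1 fell at 20 against 2 months, and 9 rose at 28 against 2 months. Flnc, which encodes filamin C, a binding partner of sarcoglycans, was at 27937, 36656 and 26474 normalised counts at 2 months and at 57484 to 61329 at 20 months. It rose by 0.97 and 0.98 on the log2 scale at 20 and at 28 against 2 months (limma adjusted p = 0.00016 in each). Xirp1, which encodes Xin, a partner of filamin C, rose by 1.03 and 1.23 (limma adjusted p = 0.00058 and 0.00018). Lims1 (0.79), Ank2 (0.51), Des (0.34), Itga7 (0.33) and Tln1 (0.25) also rose at 20 against 2 months. Ank2 encodes ankyrin B, which helps to place dystrophin at the membrane, Itga7 the laminin-binding integrin of muscle, Des desmin and Tln1 talin. The integrin partner Itgb1bp2, melusin, fell at 20 against 2 months (-0.50, limma adjusted p = 0.0013) and was at -0.16 at 28 against 2 months (0.20). Sync and Krt8 were at 0.30 and 2.38 at 20 against 2 months (limma adjusted p = 0.12 and 0.081) and rose at 28 against 2 months (0.54 and 4.33, limma adjusted p = 0.013 and 0.0064). Krt8 was at 0, 12.3 and 8.66 normalised counts in the 2-m libraries, so its log2 values depend on the pseudocount of 1. Krt19, with at most 70 normalised counts, was at -1.81 (limma adjusted p = 0.18) at 20 against 2 months. Tln2 was at -0.15, Ank3 at 0.23 and Synm at 0.24 in the same comparison, none of them called. The median of the 19 was 0.25.

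Of 9 membrane repair genes, Anxa2 and Anxa5, which encode annexins that gather at membrane wounds, fell at 20 against 2 months (-0.43 and -0.32, limma adjusted p = 0.044 and 0.042). None passed at 28 against 2 months, where Anxa2 was at -0.13 and Anxa5 at -0.11. Dysf, which encodes dysferlin, was at 0.08 and Ahnak at 0.30 at 20 against 2 months (limma adjusted p = 0.55 and 0.29). At 28 against 2 months Capn3 was at -0.25, Ptrf at -0.17, Trim72 at 0.16 and Anxa1 at 0.22, none of them called (limma adjusted p = 0.052, 0.46, 0.32 and 0.38). At 28 against 20 months no gene of these 5 lists was called.

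**Figure D4:**
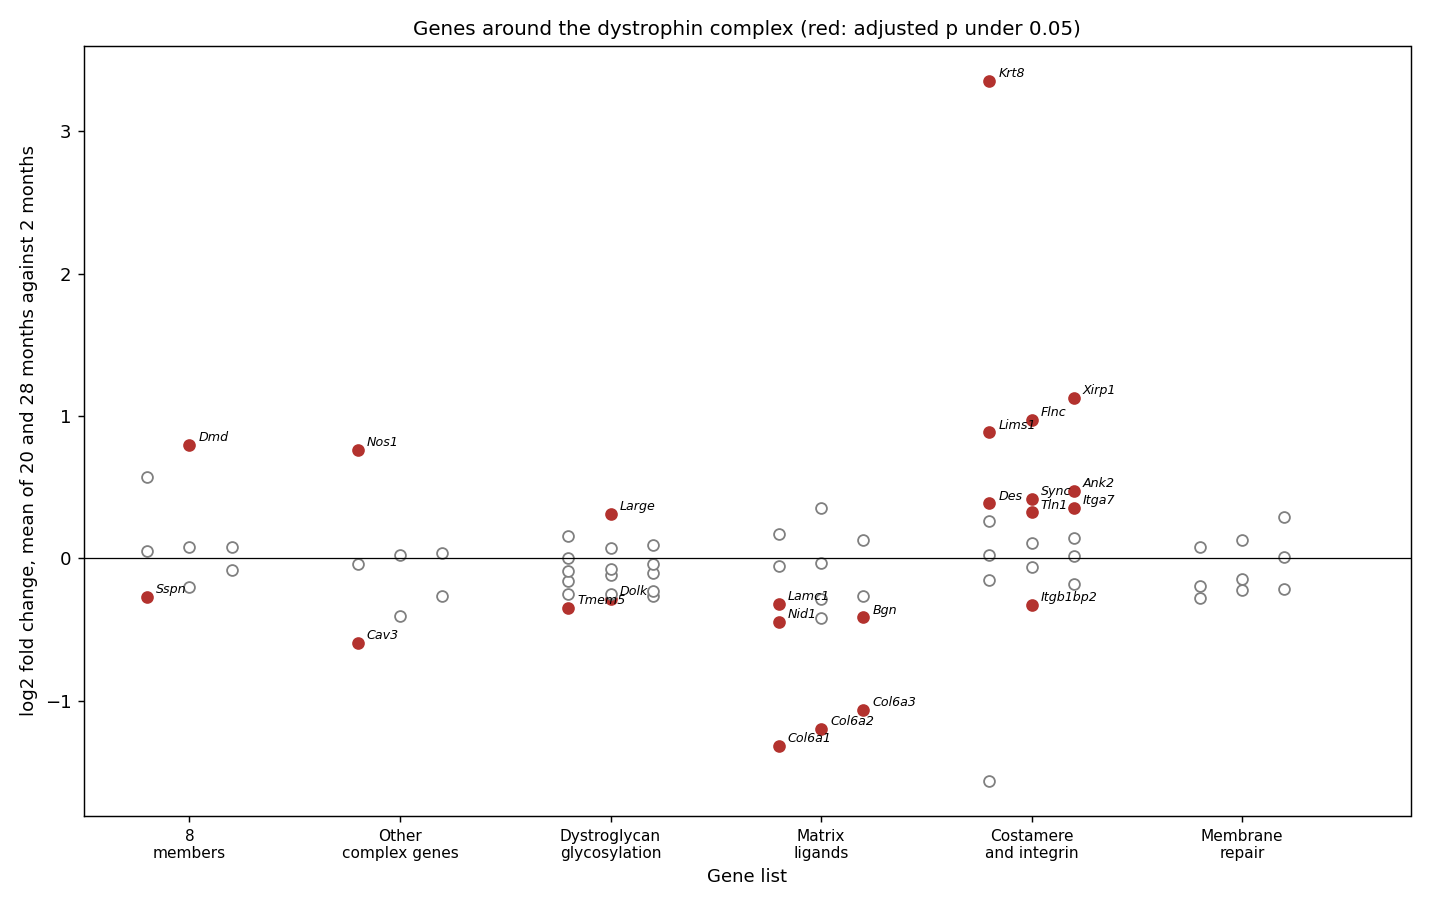
Log2 fold change of the mean of 20 and 28 months against 2 months (vertical axis) for the 8 members and for the tested genes of 5 lists around the complex (horizontal axis); each circle is 1 gene, filled red and named where the adjusted p is under 0.05. The named costamere genes lie above 0 except Itgb1bp2 (-0.33), and the 6 named matrix genes lie between -0.32 and -1.32.

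Across the 9 libraries, the members differed in which genes followed them. These correlations describe 9 points that share age groups and the lower level of long transcripts in the libraries numbered 3. Dmd and Sgcd followed each other most closely of all 28 pairs (Pearson r 0.90), and Sgcb and Sspn had r 0.78. Dmd ran opposite to Sspn (r -0.84) and to Sgcb (r -0.80), and Sgcb ran opposite to Sgcd (r -0.82). Among all tested genes, those most like Dmd were Jmjd1c, Wapal and Rnf217 (r 0.985, 0.982 and 0.980), and those most like Sspn were Ptpla, Gprc5c and Map2k3 (r 0.993, 0.984 and 0.981). Ppp1r12b and Uhmk1 were among the 3 most like Sgcd (r 0.964 and 0.957), and Sgcb most like Magt1, Sep15 and Them4 (r 0.966, 0.954 and 0.953). Dag1 was closest to Tob1, Tab2 and Pank3 (r 0.977, 0.970 and 0.968), Dtna to Stbd1, Actr1a and E130308A19Rik (r 0.981, 0.951 and 0.928), Utrn to Polr1c, Zfp36l2 and Daam1 (r 0.945, 0.939 and 0.938) and Sgca to Zyg11a, Abcf2 and Gramd3 (r 0.947, 0.940 and 0.936).

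The MBD-seq table gives the amount of captured methylated DNA in bins of 500 bp. CpG methylation near a transcript start often goes with a silent promoter, and MBD capture recovers few fragments from DNA with few CpGs whether or not these are methylated. The mean normalised count per bin was taken over the 5 bins within 1 kb of each start. In order of age, 1 read counted as 0.910, 0.842 and 0.637 in the muscle pools and as 1.02, 1.22 and 1.32 in the T-cell pools. A difference in level between ages therefore depends on this scaling as well as on the reads. With 1 pool per age there was no replicate, so no test was made and the intervals given are 95% exact Poisson intervals that cover counting error only. They are too narrow where both mates of a pair, or a read that crosses a bin edge, were counted more than once, which the sums over bins cannot show. Over 21544 protein-coding genes the median level at the gene start in muscle was 8.73, 8.92 and 10.99 at the 3 ages in order, and the 95th percentile was 44.2, 38.1 and 27.0. Low starts were higher at 28 months over all genes, with a 5th percentile of 0.910, 0.842 and 3.44 and a 25th percentile of 3.64, 3.87 and 7.22.

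Dmd has separate starts, and the 250 bases before those of its muscle transcript and of its short isoforms are printed because the captured DNA differed between them (RefSeq sequence of GRCm38.p6, plus strand, CpG sites in capitals). The muscle start follows chrX:82948620-82948869 and the short-isoform start follows chrX:85048045-85048294.

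Dmd muscle start: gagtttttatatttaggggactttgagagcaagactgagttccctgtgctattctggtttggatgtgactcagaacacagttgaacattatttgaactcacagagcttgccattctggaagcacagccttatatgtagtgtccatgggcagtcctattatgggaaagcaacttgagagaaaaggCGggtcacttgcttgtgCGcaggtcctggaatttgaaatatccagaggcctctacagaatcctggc

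Dmd short-isoform start: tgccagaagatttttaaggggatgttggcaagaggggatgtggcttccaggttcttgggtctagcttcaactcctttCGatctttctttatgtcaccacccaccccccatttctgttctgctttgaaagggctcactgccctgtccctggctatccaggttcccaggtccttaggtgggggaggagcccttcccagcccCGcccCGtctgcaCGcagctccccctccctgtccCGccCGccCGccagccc

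The first holds 2 CpG sites and the second 7, and 29.0% of 32851 RefSeq promoter windows of the same 250-base length hold 2 or fewer. Within 1 kb of the muscle start, which has 7 CpG sites, muscle was at 1.27 (95% interval 0.512 to 2.62) at the youngest age, at 0.842 (0.273 to 1.96) at 20 months and at 5.23 (3.75 to 7.09) at the oldest, from 7, 5 and 41 reads. The 28-m level was above the counting intervals of the other ages and below the 25th percentile of starts in its own pool, where low starts over all genes were also higher than at 2 months. Among genes of the X chromosome, the muscle start was below the 5th percentile at each age (2.20, 2.21 and 6.37). The T-cell pools gave 2.03, 1.22 and 0 in the same order, and the 0 reads of the last allow up to 0.793 (the level of 3 reads), with an exact interval that ends at 0.975. Around the short-isoform start, with 56 CpG sites, muscle was at 25.7 (21.6 to 30.3), 23.2 (19.5 to 27.5) and 17.7 (14.9 to 20.9) at 2, 20 and 28 months and T cells at 22.3, 24.8 and 37.0. The muscle levels came from 141, 138 and 139 reads, so the lower level at 28 months followed the scaling and not the number of reads. The T-cell levels came from 110, 102 and 140 reads. For comparison, the median gene of the X chromosome was at 24.0, 21.7 and 15.9 in muscle. Over the whole Dmd gene (4767 bins) the mean level was 6.27, 6.43 and 9.68 in muscle at the 3 ages. The median over 21570 protein-coding genes was 21.9, 20.3 and 18.6. Over the whole gene, Sgcd and Dtna were also higher at 28 than at 2 months, and Sgca, Sgcb, Sspn, Dag1 and Utrn were lower. In Dmd, 21.7% of the bins had no read at 2 months against 0.545% at 28 months. The share of empty bins was also lower at 28 months in other members, at 18.2% against 0.492% for Sgcd, 14.3% against 0% for Dag1, 13.4% against 0.143% for Dtna and 4.61% against 0.307% for Utrn.

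Sspn was the member whose mRNA fell, and the 250 bases before its 2 starts are printed in the same form so that their CpG sites can be seen. Most of the DNA captured near these starts lay outside the printed windows. The first start follows chr6:145931623-145931872 and the second chr6:145933872-145934121.

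Sspn first start: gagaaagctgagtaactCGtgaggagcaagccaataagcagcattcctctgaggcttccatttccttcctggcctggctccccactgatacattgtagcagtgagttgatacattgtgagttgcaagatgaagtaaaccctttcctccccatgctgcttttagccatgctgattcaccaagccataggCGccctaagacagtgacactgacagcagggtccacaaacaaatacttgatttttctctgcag

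Sspn second start: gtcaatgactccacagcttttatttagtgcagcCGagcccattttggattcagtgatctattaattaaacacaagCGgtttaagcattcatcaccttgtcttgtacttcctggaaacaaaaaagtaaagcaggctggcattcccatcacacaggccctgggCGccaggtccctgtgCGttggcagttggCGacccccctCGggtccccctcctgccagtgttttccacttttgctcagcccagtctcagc

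These windows hold 2 and 6 CpG sites, beside a median of 6 over the 32851 RefSeq promoter windows. Around the first start the level in muscle was 71.3 (95% interval 64.4 to 78.7) at 2 months, 57.8 (51.8 to 64.2) at 20 months and 44.5 (39.9 to 49.4) at 28 months. The intervals of the 3 ages did not overlap, and the 2-m level was at the 97.9th percentile of protein-coding gene starts. The reads were 392, 343 and 349, so the lower level at 28 than at 20 months followed the scaling. Most of this level came from 1 bin centred 878 bp downstream of the start, which was at 289, 248 and 149 at the 3 ages. The bin over the start itself was at 10.01, 5.05 and 17.8 and so was higher at 28 than at 2 months. The T-cell pools were at 122, 167 and 229 within 1 kb of the first start. High starts over all genes took the same opposite courses, with the 95th percentile given above for muscle (44.2, 38.1 and 27.0) and 51.0, 61.6 and 71.4 in T cells. Around the second start muscle was at 28.6, 18.7 and 19.0 and T cells at 87.1, 109 and 127. These bins are not those of the first start, but the bin at their upstream edge (94.6, 80.0 and 48.4 in muscle) borders its high bin. The bins centred 129, 629 and 1129 bp downstream of the second start were at 83.2, 77.1 and 81.2 in 2-m T cells. In 2-m muscle they were at 7.28, 18.2 and 20.0.

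The other members had lower levels than Sspn at their gene starts in muscle. Sgcb, with 84 CpG sites within 1 kb, was at 3.46, 3.37 and 7.39 at 2, 20 and 28 months. Dag1, with 148 sites, was at 5.82, 3.03 and 5.35, Sgca at 7.64, 7.07 and 13.0, Dtna at 5.82, 5.05 and 10.2 and Sgcd at 1.82, 3.54 and 6.37. Utrn was at 11.6, 9.60 and 8.29 at its gene start and at 34.9, 32.8 and 28.7 at the start of its curated transcript, which has 26 CpG sites. Its reads were 64, 57 and 65 at the gene start and 192, 195 and 225 at the curated start, so they were not fewer at 28 than at 2 months. At the gene starts of Sgcd and Dtna the T-cell level was higher at 20 and 28 months (30.9 and 37.8 for Sgcd, 34.8 and 32.0 for Dtna) than at 2 months (3.45 and 10.96). Over the 8 gene starts the median log2 ratio of 28-m to 2-m muscle was 0.47, beside 0.24 over all protein-coding genes. The member value moved between 0.11 and 0.91 with the window and the scaling, and the value over all genes was not recomputed under these settings. For Dmd the annotated gene start was used (8.19, 7.07 and 9.94 in muscle at the 3 ages), not the muscle start.

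**Figure D5:**
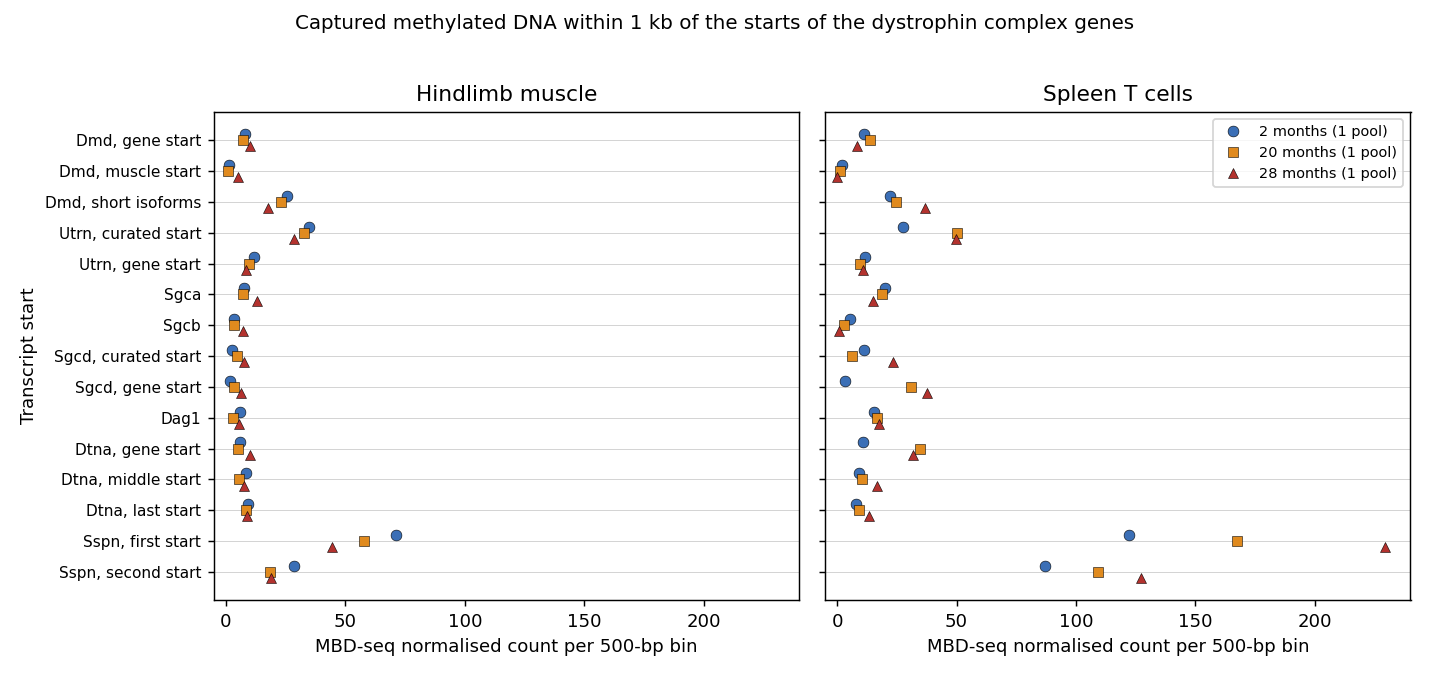
MBD-seq normalised count per 500-bp bin within 1 kb (horizontal axes) at 15 transcript starts of the 8 genes (vertical axis), in muscle (left) and T cells (right), 1 pool of 3 mice per symbol. The first Sspn start has the highest level in both tissues, going from 71.3 to 44.5 in muscle and from 122 to 229 in T cells, and the muscle start of Dmd is at 5.23 or below in every pool.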

How the data were processed

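RNA-seq was made from hindlimb muscle of 3 mice at each of 3 ages (9 libraries, recovered sums of 33051271 to 121485345). Per the paper's methods, the authors trimmed reads, aligned them to mm10 with Hisat2 (the submitters' processing notes name TopHat), counted refSeq genes with htseq-count and divided by DESeq2 size factors, so the deposited values are a normalised signal and not read counts. Every value was a whole multiple of 1 step per library (100%, tolerance 0.01), which gave back the reads. For MBD-seq the authors aligned with Bowtie2, counted 500-bp bins (sums of 135229235 to 200455250 per pool) and normalised alike. The muscle columns do not name which of 2 capture rounds they hold. Bins without a deposited value were left out of the means and of the shares of empty bins.

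Here log2 of the normalised count plus 1 was fitted with limma 3.58.1 (R 4.3.3, trend, 9 libraries, age as the only term) over 13183 genes with a mean of at least 10, with Benjamini-Hochberg adjustment at 0.05. DESeq2 1.42.0 and edgeR 4.0.16 were run on recovered reads. No pairing by replicate number was assumed: deviations of same-numbered libraries correlated at -0.040 to 0.163, and at 0.100 or below for numbers 1 and 2. Members and gene lists were chosen with earlier results of these data known. The genes named are the members, the list genes called in any comparison, the 2 largest rises and falls of each list, tissue markers and the 3 genes most like each member. Hils1 was named for its overlap. A few genes these rules would name are not reported here and were left out of the list counts. Lengths and promoters came from RefSeq (GRCm38.p6), and 7 of the 8 members had a promoter entry.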

Additional observations from a re-analysis of the deposited data

How the results depend on the processing

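Dmd kept its direction in every alternative at 20 against 2, 28 against 2 and the mean of both against 2 months. It was called in 20 of 21, 21 of 21 and 20 of 20 of them. Sspn kept its direction in the same comparisons and was called in 17 of 21, 17 of 21 and 19 of 20.

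The number of members called (2) became 0 at 20 against 2 months and 1 at 28 against 2 months, for the pooled ages and over the 3 ages after rescaling to the same sum, with 388, 31, 417, 562 and 471 genes called in all at 20 against 2, 28 against 20, 28 against 2, pooled and over 3 ages. With a replicate block it became 4 at 20 against 2 months and for the pooled ages (Dmd, Sgcb, Sgcd and Sspn) and 3 at 28 against 2 months and over the 3 ages (Dmd, Sgcd and Sspn), with 143 genes at 28 against 20 months. With only the groups compared, 1 member was called at 28 against 2 months and 76 genes at 28 against 20 months. DESeq2 called 3 members for the pooled ages (Dmd, Sgcd and Sspn) and 227 genes at 28 against 20 months, and edgeR on the recovered reads called 50 in that comparison and 2191 at 20 against 2 months. Leaving out 1 library gave 1 to 3 members at 20 against 2 months, 1 to 3 at 28 against 2 months and 1 to 3 over the 3 ages, and 1083 to 2310, 14 to 89, 964 to 1914, 1677 to 2920 and 1243 to 2240 genes in the order above. The libraries numbered 1 and 2 alone, chosen after seeing the data, gave 1 member (Dmd) at 20 against 2, at 28 against 2 months and over the 3 ages, and 1101, 14, 708, 1333 and 878 genes. A term for the libraries numbered 3, also added later, gave 4 members at 20 against 2 months, pooled and over the 3 ages, 3 at 28 against 2 months (Dmd, Sgcd and Sspn), and 108 genes at 28 against 20 months.

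Of 664 member values under the alternatives, 29 changed sign, none of them called before or after the change. At 20 against 2 months these were Utrn rescaled (0.0035) and Dag1 and Dtna with quantile normalization (-0.078 and -0.068), and without 1 library Utrn (-0.20 to 0.12), Dag1 (-0.0054 to 0.046) and Dtna (-0.025 to 0.033). At 28 against 20 months they were Sspn rescaled (0.044), with quantile normalization (0.063) and with DESeq2 (0.0016), Sgca with quantile normalization (0.0044), and Dmd (-0.11) and Sgcb (-0.0092) with libraries numbered 1 and 2. Without 1 library they were Dmd (-0.14 to 0.11), Sgcd (-0.026 to 0.20), Sgcb (-0.042 to 0.089) and Sspn (-0.022 to 0.023). Utrn with libraries 1 and 2 was at -0.017 at 28 against 2 months and -0.080 pooled. Without 1 library it was -0.0025 to 0.32 and -0.10 to 0.22, and Sgca at 28 against 2 months was -0.0052 to 0.10. The MBD-seq median of 0.47 became 0.11 with 2.5 kb to each side, 0.14 with the start bin alone and 0.91 after rescaling. The median over all genes was not recomputed. The cause of these differences was not tested.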
